A study of Mus musculus with 8 samples.

Results

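A set of 10 genes centred on peroxisome proliferator-activated receptor gamma (PPARγ) were followed in liver microvascular endothelial cells (ECs) of mice with and without LRP1, a large endocytic receptor of the lipoprotein receptor family, in their endothelium. They were taken by gene symbol and were the regulators Pparg and Cebpa, the fatty acid transporter Cd36, the fatty acid carriers Fabp4 and Fabp5, the lipid droplet genes Plin1, Plin2 and Pnpla2, and the secreted factors Adipoq and Angptl4. These were 10 of the 22520 genes in the table, and 8 of the 10 passed the filter on low signals. In the fit of all libraries Pnpla2 and Plin2 rose slightly, Fabp4 fell to 48.6% of its WT mean, and Pparg itself differed by less than the spread between libraries.

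The data were mRNA-seq signals from 4 WT libraries (LRP1 f/f; Cdh5-CreER-/-) and 4 LRP1 eKO libraries (LRP1 f/f; Cdh5-CreER+/-), all from C57BL/6 mice at postnatal day 14 and described as littermates. Both genotypes carried the floxed Lrp1 gene, and only LRP1 eKO mice carried CreER, a Cre recombinase activated by ligand and driven by the promoter of the endothelial cadherin gene Cdh5, so that an effect of CreER cannot be told apart from the loss of Lrp1. The cells were selected with magnetic beads coated with an antibody against the endothelial surface protein PECAM-1. The labels do not say whether each library came from a separate mouse, and p-values therefore measure only the spread between these samples. In bulk cells, fewer cells of a type and less RNA per cell cannot be told apart.

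PPARγ is a nuclear receptor that binds DNA as a heterodimer with a retinoid X receptor and is activated by fatty acids and their derivatives. Together with C/EBPα, it is the master regulator of the adipocyte, where its target genes take up, carry, store and release fatty acids. In the endothelium of capillaries, PPARγ is known for driving Cd36 and Fabp4, by which fatty acids cross the vessel wall, and in macrophages the same receptor also raises Cd36.

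The targeted gene was checked first. Lrp1 signals were 61.6, 59, 56.2 and 85.1 in the WT libraries and 6.01, 2.16, 5.15 and 4.32 in the LRP1 eKO libraries, which puts LRP1 eKO libraries at 6.74% of the WT mean. Of 11 endothelial markers, 8 passed the filter and Tek, Robo4 and Erg did not. Cdh5 averaged 1.86 ± 0.43 (WT) and 3.7 ± 1.34 (LRP1 eKO, SD, n = 4 each), and the fibroblast gene Dcn averaged 563 ± 12.5 and 457 ± 20. Pecam1, which encodes the protein used for selection, averaged 2.09 ± 0.416 and 3.02 ± 0.911. By mean signal over all libraries, Pecam1 and Cdh5 lay above 56% and 56.8% of the genes measured, and Dcn above 99.3%. The 13 macrophage and Kupffer cell genes, of which 9 were tested, summed to 113 to 223 in WT libraries. Their sum was 736, 673 and 394 in LRP1 eKO replicates 1, 3 and 4, but 52.8 in LRP1 eKO replicate 2. LRP1 eKO replicate 2 therefore stood apart from its group in these genes, and values without it are given beside the results. It also had the lowest Lrp1 signal of all libraries (2.16). Within the LRP1 eKO group, Lrp1 and the macrophage sum both fell in the order of replicates 1, 3, 4 and 2, a relation that was not tested. Fits without replicate 2 therefore leave out the library with the least remaining Lrp1 signal. Clec4f, which defines Kupffer cells, was listed at 0 in every WT library and at 0.826, 0.124, 0.537 and 0.427 in LRP1 eKO replicates 1 to 4, and Timd4 was listed at 0 in every library except LRP1 eKO replicate 3. Differences below are on the log2(signal + 1) scale of limma, with standard errors and with p-values adjusted over the 11391 genes tested, and this scale understates the change of low genes. Read depth and the counting unit behind the signals are not given, and levels are therefore not compared between genes beyond the ranks above. The cell type that a signal came from was not tested, and it need not be endothelial.

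The receptor was detected and did not pass the test. Pparg (chromosome 6, 115360951 to 115490399, GRCm38) had signals of 1.4, 1.53, 1.57 and 1.27 in WT libraries and 1.67, 1.15, 1.34 and 1.32 in LRP1 eKO libraries. The highest and the lowest of the 8 values were both LRP1 eKO libraries, and the groups overlapped. The log2 difference was -0.05 with a 95% interval of -0.23 to 0.13 (limma adjusted p = 0.66), and it was -0.00 without LRP1 eKO replicate 2. Of the other receptors of the family, Ppard, the form found in most tissues, averaged 17.3 and 18.9 in WT and LRP1 eKO libraries (log2 difference 0.12, limma adjusted p = 0.17). Ppara, the form that drives fatty acid oxidation in hepatocytes, was below the filter. The heterodimer partner Rxra was at 14.1 and 14.8 (log2 difference 0.06, limma adjusted p = 0.44), and Rxrg was below the filter.

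Cebpa (chromosome 7, 35119293 to 35121928), which encodes the transcription factor that works with PPARγ in adipocytes and also in myeloid cells and hepatocytes, varied far more. Its signals were 2.1, 2.29, 2.38 and 2.08 in WT libraries and 5.43, 1.23, 4.26 and 2.93 in LRP1 eKO libraries. LRP1 eKO replicates 1, 3 and 4 lay above every WT library and replicate 2 lay below every WT library. The log2 difference over all libraries was 0.37 ± 0.27 (standard error, limma adjusted p = 0.28). Without LRP1 eKO replicate 2 it was 0.67 (limma adjusted p = 0.0064). Of the 8 fits that left out a single library, Cebpa passed the test in this 1 only, and its limma adjusted p reached 0.63 in the others.

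Cd36 (chromosome 5, 17781690 to 17888801) encodes a scavenger receptor that takes up fatty acids and oxidised lipoproteins and is made by capillary ECs, adipocytes and macrophages. Its signals were 6.32, 6.93, 7.39 and 3.64 in WT libraries and 21.5, 2.34, 20.7 and 12.5 in LRP1 eKO libraries, a 9.17-fold range within the LRP1 eKO group. The order of the libraries was that of Cebpa, with LRP1 eKO replicates 1, 3 and 4 above every WT library and replicate 2 below them all. The group means were 6.07 ± 1.68 and 14.2 ± 8.91 (SD, n = 4 each), and the log2 difference was 0.82 ± 0.53 (standard error, 95% interval -0.36 to 2.00, limma adjusted p = 0.24). Without LRP1 eKO replicate 2, the difference was 1.44 (limma adjusted p = 0.0015), past the 2-fold threshold. Of the 8 fits that left out a single library, Cd36 passed the test in this 1 only, and its limma adjusted p reached 0.48 in the others.

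**Figure D1:**
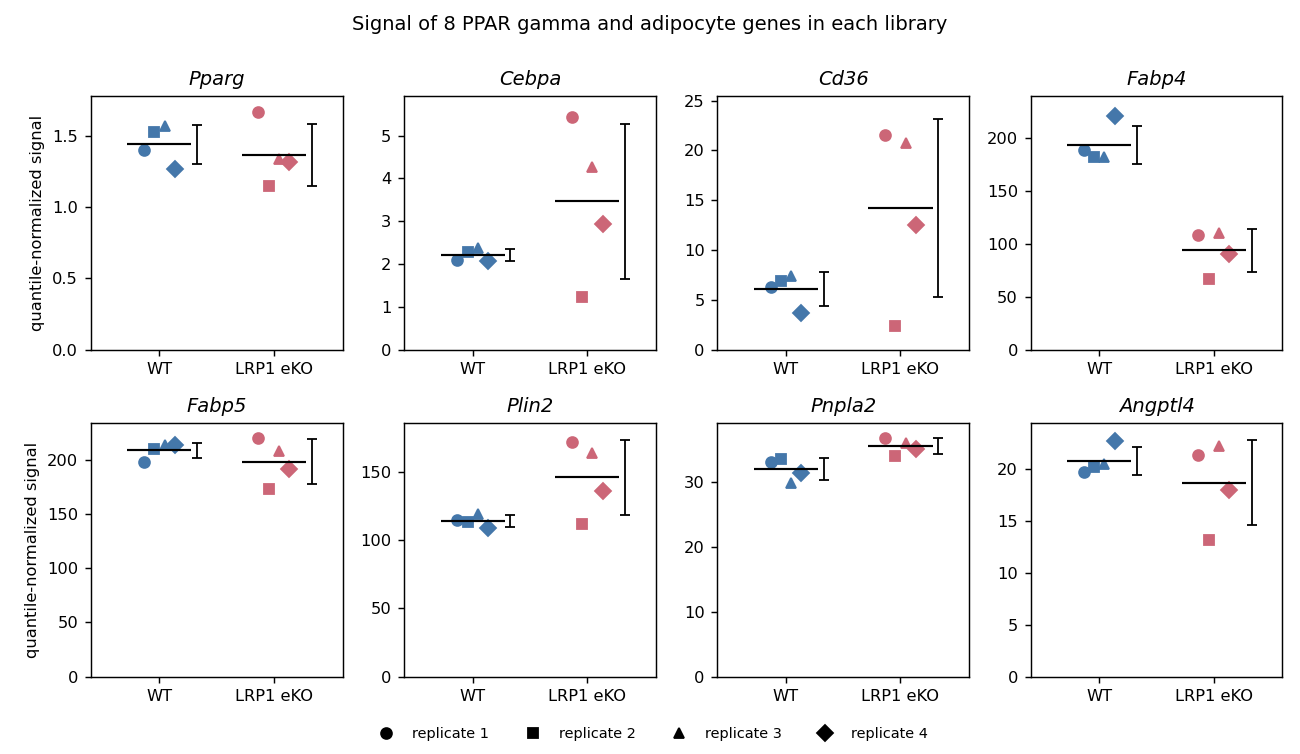
Signal of each of the 8 tested genes in every library (points shaped by replicate, vertical axes in quantile-normalized signal from 0, a separate axis for each gene), with WT and LRP1 eKO libraries side by side, lines at the group mean and whiskers of 1 SD (n = 4 each). The Fabp4 points of the LRP1 eKO libraries, at 66.7 to 110, all lie below the WT points, at 182 to 220, whereas for Cebpa and Cd36 LRP1 eKO replicate 2 lies below the WT libraries and the other LRP1 eKO libraries lie above them.

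The carriers showed the clearest difference between genotypes. Fabp4, also known as aP2, encodes the fatty acid binding protein of adipocytes, capillary ECs and macrophages, and Fabp5 the related epidermal form, which ECs also make. Both genes are on chromosome 3, with Fabp5 at 10012548 to 10016607 on the plus strand and Fabp4 at 10204088 to 10208576 on the minus strand. Their coding sequences, of 399 bases for Fabp4 and 408 bases for Fabp5, were 60.4% identical over 399 aligned bases. To show how far short reads can tell them apart, the most alike 90 bases of the annotated coding sequences are given 5′ to 3′, bases 267 to 356 of Fabp4 and bases 273 to 362 of Fabp5, with the 26 bases that differ in capitals.
Fabp4: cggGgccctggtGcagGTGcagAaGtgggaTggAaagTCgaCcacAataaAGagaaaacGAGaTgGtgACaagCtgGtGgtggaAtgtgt
Fabp5: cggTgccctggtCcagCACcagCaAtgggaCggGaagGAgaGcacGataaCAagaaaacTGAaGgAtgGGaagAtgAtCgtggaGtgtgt
No stretch of 50 bases was shared between the annotated transcripts of Fabp4 and Fabp5, and none of the 847 stretches of Fabp4 was found in a transcript of any other gene. Of the 938 stretches of Fabp5, 198 (21.1%) also occurred in transcripts of 5 other genes, Fabp5l2 and pseudogenes such as Gm6166 among them, so that the Fabp5 signal depends on how such reads were assigned.

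Fabp4 signals were 188, 182, 182 and 220 in WT libraries and 108, 66.7, 110 and 90.3 in LRP1 eKO libraries. The groups did not overlap, and LRP1 eKO replicate 2 was again the lowest of its group. The means were 193 ± 18.4 and 93.8 ± 20.1 (SD, n = 4 each), and Fabp4 changed by -1.06 ± 0.14 on the log2 scale (standard error, 95% interval -1.38 to -0.74, limma adjusted p = 4.1e-04). The exact two-sided permutation test gave p = 0.0286, the smallest that 4 libraries against 4 allow. Fabp4 stayed below an adjusted p of 0.05 in 19 of 19 alternative fits, with log2 fold changes of -1.24 to -0.84. Without WT replicate 4, the highest WT library, or without LRP1 eKO replicate 2, its change was less than 2-fold, at -0.99 and -0.90. The same held with library weights (-0.90) and with both of these libraries left out (-0.84).

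Fabp5, in contrast, did not pass the test. Its signals were 198, 210, 213 and 213 in WT libraries and 220, 173, 208 and 191 in LRP1 eKO libraries. Both the highest and the lowest library were LRP1 eKO, and the log2 difference was -0.08 with a 95% interval of -0.24 to 0.08 (limma adjusted p = 0.38). It was -0.02 without LRP1 eKO replicate 2. With the mean log2 signal of the macrophage list as a covariate, Fabp5 was lower by -0.16 (limma adjusted p = 0.036). The difference between these carriers was tested directly as the log2 ratio of Fabp4 to Fabp5 in each library. It was -0.07, -0.21, -0.22 and 0.05 in WT libraries and -1.02, -1.38, -0.92 and -1.08 in LRP1 eKO libraries. The ratio fell in LRP1 eKO libraries by 0.98 on the log2 scale (exact two-sided permutation p = 0.0286), and the groups did not overlap.

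The lipid droplet genes showed smaller differences. Plin2 (chromosome 4, 86648386 to 86670060) encodes perilipin 2, which coats the lipid droplets of most cells. Its signals were 115, 113, 119 and 109 in WT libraries and 172, 112, 164 and 136 in LRP1 eKO libraries. LRP1 eKO replicates 1, 3 and 4 were above all WT libraries, whereas replicate 2 fell among them. Plin2 rose by 0.33 ± 0.12 on the log2 scale (standard error, limma adjusted p = 0.045), with an exact two-sided permutation p of 0.114. The call was lost in 9 of 19 alternative fits. Of the fits that left out a library, it passed the test only without LRP1 eKO replicate 2 (0.45, limma adjusted p = 0.0021), and its adjusted p reached 0.12 in the others. Of the 2057 stretches of 50 bases in Plin2 transcripts, 4.38% were shared with the annotated gene Gm12551.

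Pnpla2 (chromosome 7, 141455198 to 141460743) encodes adipose triglyceride lipase, which takes the first fatty acid off a stored triglyceride. Its signals were 33.1, 33.6, 29.9 and 31.5 in WT libraries and 36.9, 34.1, 36.1 and 35.1 in LRP1 eKO libraries. Every LRP1 eKO library was higher than every WT library, by a narrow margin. Pnpla2 rose by 0.15 ± 0.05 on the log2 scale (standard error, limma adjusted p = 0.039, exact two-sided permutation p = 0.0286). This call too was lost in 8 of 19 alternative fits, with adjusted p-values of 0.038 to 0.1 when each library was left out in turn. It remained past the threshold in 4 of these 8 fits.

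Plin1 and Adipoq, which mark mature adipocytes, were close to 0. Plin1 (chromosome 7, 79720218 to 79732903), perilipin 1 of the adipocyte droplet, had signals of 0.0165, 0.0537, 0.041 and 0.04 in WT libraries and was listed at 0 in LRP1 eKO libraries other than replicate 3, at 0.0132. Without the filter on low signals its log2 difference was -0.05 (limma adjusted p = 0.027), and no fold is given against values listed at 0. Adipoq (chromosome 16, 23146536 to 23158028), the hormone adiponectin, was between 0 and 0.0999 in all libraries, with values listed at 0 in both genotypes (log2 difference -0.00, limma adjusted p = 1 without the filter). Of 12 adipocyte markers, 11 were below 1 in every library, and the highest value among these 11 was 0.581, for the glucose transporter Slc2a4. Their summed signal was 1.2 to 1.49 in WT and 0.576 to 0.948 in LRP1 eKO libraries. These sums did not overlap, and Slc2a4 and Plin4 were lower in LRP1 eKO libraries without the filter (limma adjusted p = 0.0083 and 0.0037). The marker above the filter was Lipe, a lipase that other cells also make, at 4.87 to 5.77 in WT and 2.94 to 3.37 in LRP1 eKO libraries. Whether a few adipocytes were present was not tested.

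Angptl4 (chromosome 17, 33773750 to 33781830) encodes a secreted inhibitor of lipoprotein lipase and is a classical target of PPARs. Its signals were 19.7, 20.2, 20.5 and 22.7 in WT libraries and 21.3, 13.2, 22.2 and 18 in LRP1 eKO libraries. The WT range lay within that of the LRP1 eKO libraries except for WT replicate 4, and LRP1 eKO replicate 2 was the lowest of all. The log2 difference was -0.17 with a 95% interval of -0.47 to 0.13 (limma adjusted p = 0.34), and it was -0.02 without LRP1 eKO replicate 2.

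In all, 2 of the 8 tested genes rose, where 19.0% of all genes tested did, and 1 fell, where 22.2% did. At an additional change of 2-fold, Fabp4 was left, where 1.66% of all genes tested passed in either direction, 0.869% higher and 0.790% lower. The groups did not overlap for 2 of the 8, Fabp4 (lower) and Pnpla2 (higher), compared with 42.6% of all genes tested, 22.5% lower and 20.0% higher. The median log2 difference of the 8 genes was 0.05, compared with -0.009 for all genes tested. As a group, the tested genes were thus called no more often than genes in general, at 37.5% and 41.2%.

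**Figure D2:**
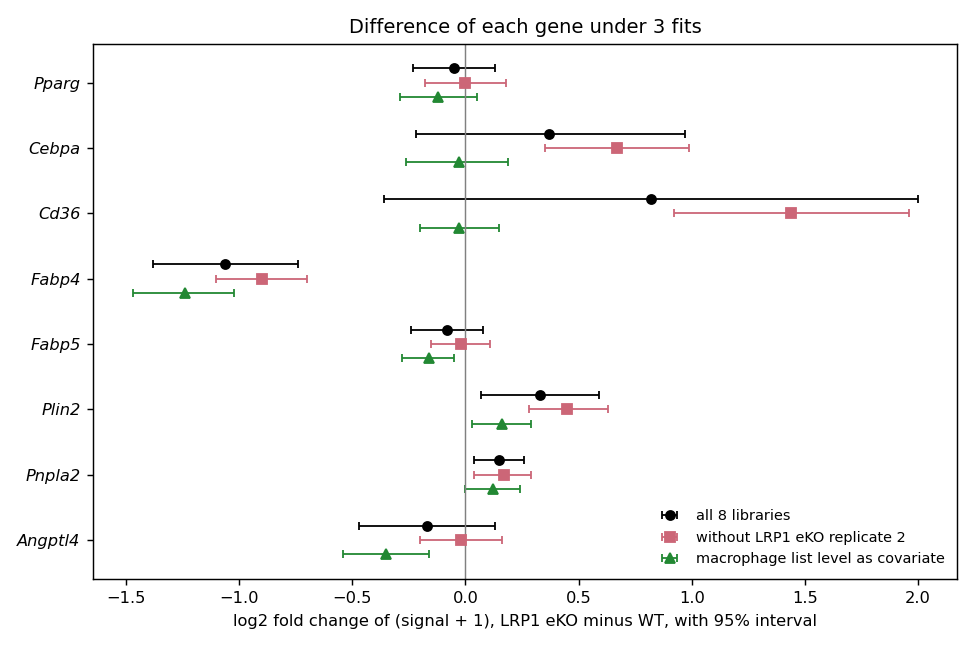
Difference between LRP1 eKO and WT libraries on the log2(signal + 1) scale (horizontal axis) for the 8 tested genes, with 95% intervals, from limma fits of all libraries, without LRP1 eKO replicate 2, and with the macrophage list as a covariate. Fabp4 lies below 0 in all 3 fits (-1.06, -0.90 and -1.24), whereas Cd36 moves from 0.82 to 1.44 and to -0.03.

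The order of the LRP1 eKO libraries was shared by most of these genes. LRP1 eKO replicate 2 was the lowest of its group in 8 of 8 tested genes, which held for 24.4% of all genes tested. From high to low, the order of replicates 1, 3, 4 and 2 was found for 6 of the 8, all but Fabp4 and Angptl4, and for 6.74% of all genes tested. All 9 tested macrophage genes had this order too. LRP1 eKO replicate 2 was below the mean of the other LRP1 eKO libraries by a log2 difference of -2.49 for Cd36, -1.19 for Cebpa, -0.61 for Fabp4, -0.59 for Angptl4 and -0.48 for Plin2. For the macrophage list this difference was -3.27, and for Pnpla2 it was -0.08.

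The macrophage list had a mean log2 signal of 3.19, 3.30, 3.41 and 2.62 in WT libraries and 5.36, 1.76, 5.24 and 4.49 in LRP1 eKO libraries. WT replicate 4, the lowest WT library in this list, was also the lowest WT library in Cd36. Of the 9 tested macrophage genes, 1 rose, Csf1r, the receptor for colony stimulating factor 1, and the median log2 difference was 1.14. Without LRP1 eKO replicate 2, all 9 rose and the median was 1.98, where 1964 of the 11391 genes tested rose and 2366 fell. Since this library was set apart by its low signals in these same genes, that count is a description only. With the list as a covariate, the difference was -0.03 for Cd36 (limma adjusted p = 0.8) and -0.03 for Cebpa (limma adjusted p = 0.81). In the same fit Plin2 was at 0.16 (limma adjusted p = 0.049), Pnpla2 at 0.12 (limma adjusted p = 0.11) and Fabp4 at -1.24 (limma adjusted p = 2.0e-05). Angptl4 passed the threshold only in this fit, at -0.35 (limma adjusted p = 0.01). Without the covariate, the Fabp4 difference was -1.06. Averaged by genotype, the list mean was higher for LRP1 eKO (4.21) than for WT (3.13), and the fit therefore cannot fully separate macrophage content from genotype. The part of macrophage RNA in the Fabp4, Cd36 and Cebpa levels was not tested further.

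**Figure D3:**
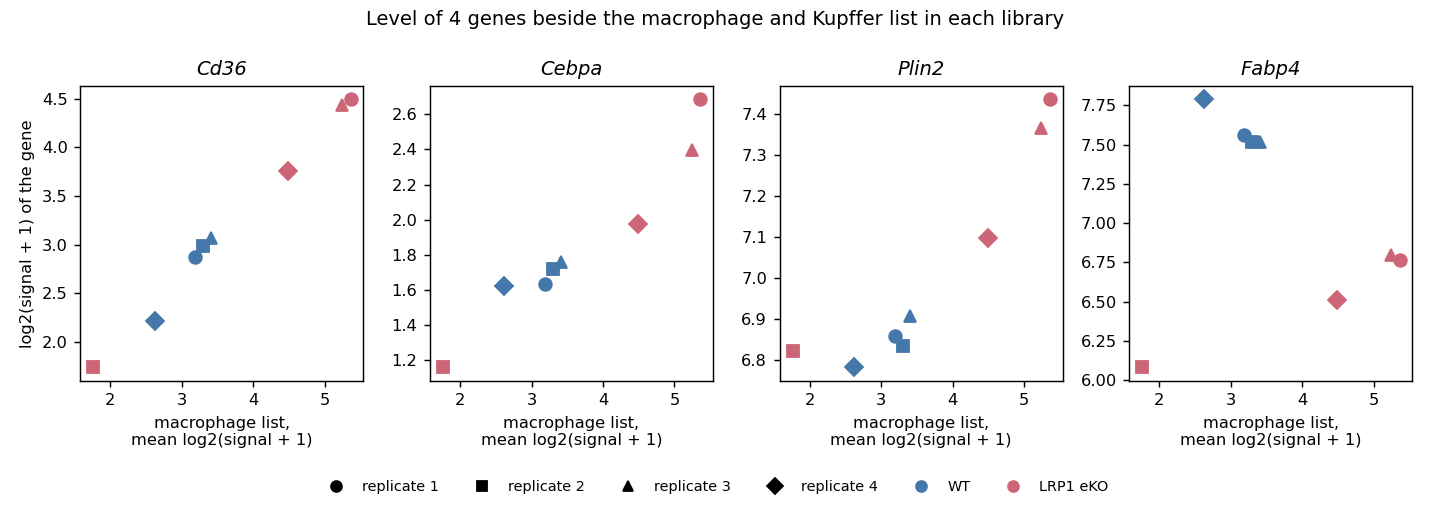
Signal of Cd36, Cebpa, Plin2 and Fabp4 in each library (vertical axes, log2(signal + 1)) against the mean log2 signal of the 9 tested macrophage and Kupffer cell genes (horizontal axis), with WT and LRP1 eKO libraries in separate colours. LRP1 eKO replicate 2 lies at the lowest macrophage level (1.76) and the lowest Cd36, and the all LRP1 eKO libraries lie below all WT libraries in Fabp4.

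Signals of other cell types also differed between the genotypes. Summed signals here are over all measured genes of a list, including those below the filter. Of all genes tested, 19.0% rose and 22.2% fell. The liver sinusoidal EC list had 5 tested genes, of which 2 rose (Oit3 and Flt4) and 0 fell, with Stab2 and Clec4g below the filter and with summed signals of 9.35 to 12.9 in WT and 32.9, 10.7, 29.3 and 20.3 in LRP1 eKO replicates 1 to 4. Without LRP1 eKO replicate 2, all 5 rose. Of 4 tested genes of continuous capillaries, the EC type in which Fabp4 and Cd36 are best known, 1 fell. This was the carbonic anhydrase Car4 (from a mean of 2.01 to 0.49, limma adjusted p = 7.4e-04). Plvap averaged higher in LRP1 eKO libraries and Gpihbp1 and Rgcc lower, none past the threshold. Without LRP1 eKO replicate 2, 1 gene of this list rose and 1 fell. Its summed signals were 7.8 to 10.8 in WT and 4.08 to 9.21 in LRP1 eKO libraries, with Tcf15 at 0 in every library. All 5 tested hepatocyte genes fell, and the 10 genes of the list summed to 89 to 130 in WT and 33.5 to 43.9 in LRP1 eKO libraries. All 4 tested skeletal muscle genes fell, and the 8 measured genes of that list summed to 32.8 to 55.3 and 6.02 to 7.42. Of 7 tested stellate cell and fibroblast genes, 1 rose (Hgf, 0.46 on the log2 scale) and 2 fell (Dcn, -0.30, and Lum, -0.69). That list summed to 1301 to 1424 in WT and 1142 to 1388 in LRP1 eKO libraries. Of the 8 tested endothelial genes 3 rose, and 5 rose without LRP1 eKO replicate 2. The 11 endothelial genes summed to 49.7 to 52.3 in WT and 58.9 to 82.9 in LRP1 eKO libraries. The part of these differences in the Fabp4 values was not tested.

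Lists of related genes were then examined. Of all genes tested, 41.2% were called in either direction. In the lists these shares were 50% for partners and coregulators, 45.5% for adipogenic regulators and 33.3% for uptake and transport. They were 37.5% for lipid droplets and triglyceride turnover and 52.6% for other PPAR-responsive genes. Of the 16 tested partners and coregulators of PPARs, 6 rose and 2 fell, with a median log2 difference of 0.13. The coactivator Ncoa2 rose from 4.58 ± 0.938 to 6.52 ± 0.268 (SD, n = 4 each, log2 fold change 0.45, limma adjusted p = 0.012). The corepressor Nrip1 also rose (0.36), whereas the histone deacetylase Hdac3 fell from 30.7 ± 1.84 to 26.2 ± 0.574 (-0.22, limma adjusted p = 0.0071), as did the transcriptional coregulator Tbl1xr1 (-0.23). Ppargc1a and Ppargc1b, the best known coactivators of PPARγ, were below the filter.

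Of the 11 tested adipogenic transcription factors and regulators, 2 rose and 3 fell (median 0.01). The changes went in both directions. Cebpb, which induces Pparg in preadipocytes, was 47.3, 54.6, 57.7 and 56.1 in WT libraries and 34.8, 27.9, 32.5 and 28.4 in LRP1 eKO libraries, without overlap (log2 fold change -0.79, limma adjusted p = 9.0e-05). Klf15, an inducer of adipogenesis, was 5.32, 5.52, 4.45 and 5.59 against 2.3, 3.15, 2.18 and 2.48 (-0.82, limma adjusted p = 1.7e-04). Dlk1, the preadipocyte factor that restrains differentiation of these cells, fell by 0.54 on the log2 scale. Klf4, an early inducer of adipogenesis that is also induced by laminar flow in ECs, rose from 8.9 ± 0.297 to 16.4 ± 2.41 (SD, n = 4 each, 0.80, limma adjusted p = 9.8e-05), with its highest signal in LRP1 eKO replicate 2. Klf5, another early inducer, rose by 0.32 on the log2 scale.

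Of 15 tested genes of fatty acid uptake and transport, 3 rose and 2 fell (median -0.01). Lpl, the lipase that frees fatty acids from lipoproteins at the capillary wall, was 91.1, 96.2, 97.9 and 85.4 in WT libraries and 63.2, 41, 57.8 and 48.7 in LRP1 eKO libraries. The groups did not overlap, and the log2 fold change was -0.82 (limma adjusted p = 5.3e-04). Gpihbp1, which anchors this lipase to capillary ECs, did not pass the test (-0.10, limma adjusted p = 0.62). The caveolar gene Cav1 rose from 273 ± 54.2 to 454 ± 53.6 (SD, n = 4 each, 0.75, limma adjusted p = 0.0029) and the lipoprotein receptor Vldlr from 9.13 ± 0.675 to 15.4 ± 1.7 (0.69, limma adjusted p = 1.6e-04). Vegfb, a growth factor linked to endothelial fatty acid uptake, rose by 0.29, and the tetraspanin Cd9 fell by 0.30 on the log2 scale. Without LRP1 eKO replicate 2, 4 uptake genes rose and 2 fell.

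Among 16 tested genes of lipid droplets and triglyceride turnover, 2 rose and 4 fell (median -0.00). The lysosomal lipase Lipa rose from 24.5 ± 1.73 to 33.5 ± 4.23 (SD, n = 4 each, 0.43, limma adjusted p = 0.0042), and Plin3, a coat protein of small droplets, by 0.15. Lipe, the hormone-sensitive lipase that acts after Pnpla2 on stored fat, was 5.15, 4.97, 4.87 and 5.77 in WT libraries and 3.33, 2.94, 3.37 and 3.24 in LRP1 eKO libraries (-0.55, limma adjusted p = 1.8e-04). The droplet protein gene Cideb and Dgat2, an enzyme of the last step of triglyceride synthesis, each fell by 0.38 on the log2 scale. Without LRP1 eKO replicate 2, 1 gene of this list rose and 3 fell.

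Of 19 other genes known to respond to PPARs, 5 rose and 5 fell (median 0.06). Olr1, an EC receptor for oxidised lipoproteins, rose from 25.1 ± 2.69 to 45.5 ± 3.95 (SD, n = 4 each, 0.83, limma adjusted p = 7.5e-05), and the pantetheinase gene Vnn1 rose by 0.60. Acot1, a cytosolic thioesterase, was the only gene of these lists past 2-fold, from 9.74 ± 2.21 to 3.35 ± 0.428 (SD, n = 4 each, -1.29, limma adjusted p = 6.5e-05). Of its 2245 stretches of 50 bases, 32.7% also occurred in transcripts of other genes, with Acot2 first among them, so that its value depends on how such reads were assigned. Pdk4, which restrains glucose oxidation, and Ucp2, a mitochondrial carrier, fell by 0.43 and 0.35 on the log2 scale. Of the 3 receptors that bind adiponectin, Adipor1 rose (0.14) and Cdh13, a cadherin of ECs, fell (-0.45). Of the genes named here as risen or fallen in these lists, Tbl1xr1, Vegfb, Plin3, Pdk4, Ucp2, Adipor1 and Cdh13 lost their call when some library was left out, and the others kept it whichever library was left out.

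**Figure D4:**
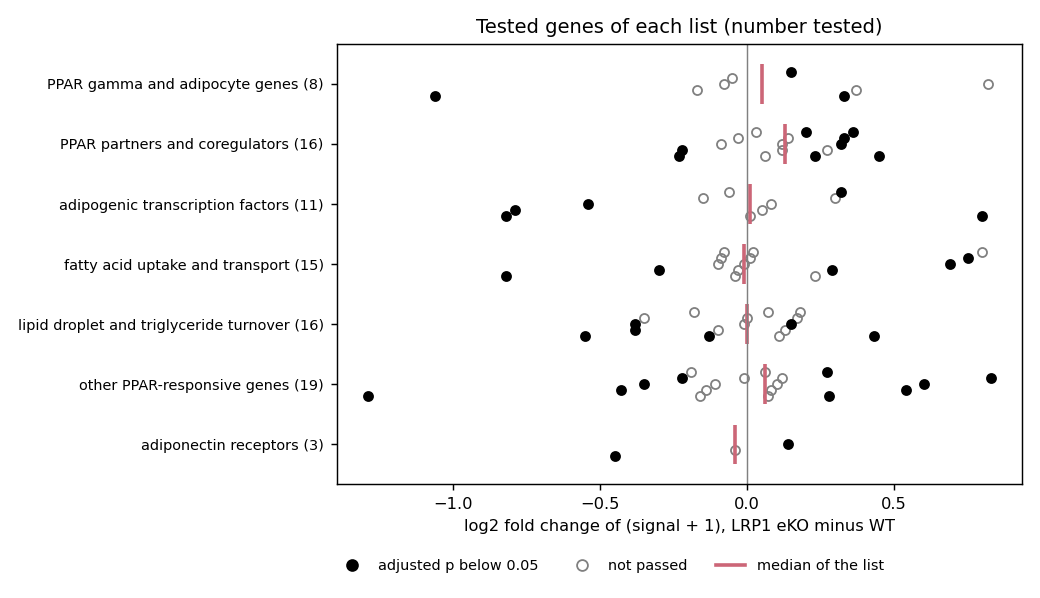
Difference between LRP1 eKO and WT libraries on the log2(signal + 1) scale (horizontal axis) for each tested gene (points) of the main set and the pathway lists, with the list median as a red bar, genes at a limma adjusted p below 0.05 as filled points and the others as open points. Genes lie on both sides of 0 in each list, with medians from -0.04 to 0.13.

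Promoter sequence was then read, since several of these genes shared a library order. RefSeq promoter windows of 300 bases on GRCm38.p6, from 250 bases before to 50 after a transcript start, matched 7 of the 10 genes in 9 windows. Fabp4, Fabp5 and Angptl4 were not matched and were not searched. The PPAR element, a direct repeat of AGGTCA with a single base between the copies, was searched on both strands. It was in none of the 9 windows and in 0.0396% of 32851 windows of all genes. A looser form with any base at the fourth position of each copy, which includes the former, was also in none of the 9 and in 0.381% of all windows. A single AGGTCA, which is part of the longer element, was found in windows of 3 of the 7 genes (Pparg, Cd36 and Plin2). It was in 16.3% of all windows, a share of windows and not of genes, since a gene such as Pparg can have several. Of the genes with a window, Cd36, Cebpa and Plin2 are shown, since LRP1 eKO replicate 2 lay furthest below the rest of its group in them. The Cd36 window lies inside the annotated gene, which extends upstream to 17888801, and the most upstream Cd36 start was not searched. The 250 bases before the start are given for Cd36 (chr5:17835897-17836146, minus strand), Plin2 (chr4:86670060-86670309, minus strand) and Cebpa (chr7:35119043-35119292, plus strand), 5′ to 3′ along the transcribed strand, with AGGTCA on either strand in capitals.
Cd36: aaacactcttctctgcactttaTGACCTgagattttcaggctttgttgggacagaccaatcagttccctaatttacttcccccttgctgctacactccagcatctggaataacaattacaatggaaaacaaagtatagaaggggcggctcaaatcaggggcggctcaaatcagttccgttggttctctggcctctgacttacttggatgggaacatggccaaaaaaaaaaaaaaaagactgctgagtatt
Plin2: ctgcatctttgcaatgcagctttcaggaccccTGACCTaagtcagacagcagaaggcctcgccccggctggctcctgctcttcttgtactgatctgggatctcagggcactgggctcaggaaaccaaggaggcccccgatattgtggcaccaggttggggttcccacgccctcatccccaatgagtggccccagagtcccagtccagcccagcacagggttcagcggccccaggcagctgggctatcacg
Cebpa: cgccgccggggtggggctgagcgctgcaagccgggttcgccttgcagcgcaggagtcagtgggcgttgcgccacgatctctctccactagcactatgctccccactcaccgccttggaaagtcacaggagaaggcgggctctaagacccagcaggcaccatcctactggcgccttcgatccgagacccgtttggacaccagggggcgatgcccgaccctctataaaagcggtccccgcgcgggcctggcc
AGGTCA lay on the opposite strand (read as TGACCT) at position -228 from the start in Cd36 and at -218 in Plin2, and Cebpa had none. In the Pparg windows it began at -28 and -9. A match is a description of the letters in these windows only.

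The genes whose pattern over the 8 libraries lay nearest, by root mean square difference of centred log2 signals, differed between members. Nearest to Cd36 were Cxcr4 (0.095), C3ar1 (0.104) and Cd68 (0.105), a chemokine receptor, a complement receptor and a macrophage lysosomal protein that is itself on the macrophage list. Nearest to Plin2 were Psap (0.058), Wipf1 (0.065) and 5430435G22Rik (0.065). For Pparg they were Rnf168 (0.035), Oxnad1 (0.036) and Vezt (0.038), and for Angptl4 they were Serinc2 (0.054), Pla1a (0.067) and Lrrn2 (0.070). These distances are descriptions over 8 libraries, with no test.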

How the data were processed

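RNA of PECAM-1-selected liver ECs (4 WT and 4 LRP1 eKO libraries) was prepared with TruSeq kits. The authors deposited 1 table of quantile-normalized signal per gene and library. The submitters' processing notes name TopHat2, Cufflinks and mm10, whereas the study's methods name STAR and featureCounts with mm10. Which of these made the deposited values, and the read depth, are not given in the sources used here. Library sums were 484445 to 485947, and 6186 to 6621 genes were at 0. Since the values are not counts, count models were not used.

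Signals were converted to log2(signal + 1). The 11391 genes that reached a signal of 1 in 4 or more libraries were compared with limma 3.58.1 (R 4.3.3, mean-variance trend, genotype only), with Benjamini-Hochberg adjustment and a threshold of 0.05, with a 2-fold change in addition where stated. Exact two-sided permutation tests used the 70 splits of 4 against 4. The fit was tested on simulated data.

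The 10 genes, the gene lists and the tests were chosen with earlier results of these data known. Of the list symbols, 199 matched by symbol and 7 by Ensembl ID, and 2 (Cebpd, Acta1) were not matched. The text names the 10 genes, Lrp1, up to 3 genes in each direction per pathway list with the largest changes past the threshold, up to 3 of the most abundant genes per cell type list (most given only within the list sums), and the 3 nearest patterns of 4 genes. Other genes (Ppard, Rxra, Ppara, Rxrg, Ppargc1a, Ppargc1b, Gpihbp1, Csf1r, Car4, Cdh5, Tek, Robo4, Erg, Oit3, Flt4, Clec4g, Clec4f, Timd4, Tcf15, Slc2a4, Plin4 and Stab2) were named after their values were seen, and 2 pathway genes that the rule names are not reported here. Positions and transcripts are from the GENCODE annotation of GRCm38 and promoters from RefSeq. Alternatives changed the pseudocount, filter, variance model, weights, centring, replicate block, libraries and a macrophage covariate.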

Additional observations from a re-analysis of the deposited data

Results flagged for a closer look

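Among the 20 groups of 4 libraries examined for the 10 genes, 1 held a library far from the others, where chance gives about 1. This was Plin1 in the LRP1 eKO group, in which replicate 3 had a signal of 0.0132 and the others were listed at 0, so that the gap to the nearest library divided by the range was 1.000.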

How the results depend on the processing

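Over the alternatives, Fabp4 kept its direction and its call, and of the values of the other tested genes 103 kept direction and side of the threshold, 17 lost a call, 8 gained one and 3 reversed. The number of the 8 tested genes that rose (2) was 0 with no filter, 0 with no mean-variance trend, 4 with library weights, 1 with the macrophage covariate and 4 with WT replicate 4 and LRP1 eKO replicate 2 left out together. Leaving out each library in turn gave 0 to 4, with 4 (Cebpa, Cd36, Plin2 and Pnpla2) without LRP1 eKO replicate 2, 1 without WT replicates 1, 2 or 4, and 0 without WT replicate 3 or LRP1 eKO replicates 1, 3 or 4. The number that fell (1) was 3 with the macrophage covariate. The number past 2-fold (1) ranged from 0 to 1, with 0 without WT replicate 4, and was 1 without LRP1 eKO replicate 2, where Cd36 passed and Fabp4 did not. Cd36 also passed in place of Fabp4 with library weights (1.03) and with WT replicate 4 and LRP1 eKO replicate 2 left out together (1.25). Directions reversed for Cebpa (-0.034) and Cd36 (-0.027) with the macrophage covariate and for Angptl4 (0.021) with WT replicate 4 and LRP1 eKO replicate 2 left out. The cause was not tested.

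Whether same-numbered libraries were paired is not given in the labels. Across genes, their deviations from group means correlated at -0.09, -0.13, 0.18 and 0.04, which cannot show that they were unpaired. With the replicate block 1 of the 8 genes rose, since Pnpla2 was lost (limma adjusted p = 0.076).

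Of the counts over the pathway lists, 200 stayed within 1.5 times the value reported and 28 did not. With no depth known, no limit from counting can be given for Plin1 and Adipoq.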
